A study of Mus musculus with 86 samples.

Results

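RNAs that are translated in neuronal processes travel in granules built by RNA-binding proteins, and the RNAs encoding 10 of these proteins were followed across the soma and neurites of mouse neuronal cell lines. The genes were chosen by name and are 10 of the 53664 genes in the mouse RNA-seq files. Fmr1, Fxr1 and Fxr2 encode the fragile X family, Igf2bp1, Igf2bp2 and Igf2bp3 the zipcode-binding family, Stau1 and Stau2 the Staufen proteins, Pura the single-stranded nucleic acid binding protein Pur-alpha, and Syncrip the protein hnRNP Q. The study asked which RNAs rely on TDP-43, an RNA-binding protein encoded by Tardbp and linked to amyotrophic lateral sclerosis (ALS), for their distribution between soma and neurites.

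Granule proteins of this kind hold RNAs in a repressed state, link them to kinesin motors on microtubules and release them for translation near synapses or growth cones. FMRP, the product of Fmr1, represses translation and forms complexes with FXR1P and FXR2P. The IGF2BP proteins bind the zipcode of Actb mRNA, Staufen proteins bind double-stranded stretches of their targets, and Pur-alpha and hnRNP Q were found in RNA granules that carry kinesin.

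CAD cells, a catecholaminergic mouse line from the central nervous system, and N2A (Neuro-2a) cells, a mouse neuroblastoma line, were used as single clones with a TetOff TDP-43 genotype. In these clones the endogenous Tardbp alleles had been inactivated with CRISPR/Cas9, and TDP-43 came from a single-copy HA-tagged transgene that doxycycline switches off. The minus dox groups are called wild-type and the plus dox groups knockout, and both carry the edited alleles and the transgene, so that loss of TDP-43 and doxycycline itself cannot be told apart. The labels give doxycycline as 2 µg/mL for 48 h. The study's methods for the soma and neurite cultures name a different concentration. A further experiment used CAD cells that keep their own Tardbp gene and express an integrated, doxycycline-inducible transgene of wild-type TDP-43 or of TDP-43 with Q331K, a change found in ALS. Their labels read WT or Q331K TDP-43 overexpression and give no dose of their own. Per the study's methods, doxycycline was given to induce the transgene before these cells were fractionated. The study reports that endogenous TDP-43 fell on induction while total TDP-43 stayed about the same. In all 3 experiments the cells were differentiated by serum removal and separated on porous membranes into soma and neurites, and polyadenylated RNA was sequenced. Each of the 12 groups held 3 libraries, 36 in all. The labels do not say whether replicates 1 to 3 came from separate cultures, so the p-values measure the spread between these libraries. In such bulk RNA, fewer cells of a type and less RNA per cell cannot be told apart.

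Libraries held 25009904 to 32895542 estimated counts in CAD, 22726534 to 31911030 in N2A and 9783050 to 15870647 in the transgene experiment. Levels are given as CPM, counts relative to the library total, after edgeR's TMM scaling, which sets the libraries so that the typical gene does not differ between them. Tardbp was at 515 to 569 CPM in wild-type and 90.3 to 98.3 CPM in knockout CAD soma, and at 546 to 601 and 160 to 179 CPM in N2A soma. It was at 715 to 808 CPM in soma with the wild-type transgene and 724 to 806 CPM with Q331K. Of 8 neuronal markers, 6 to 7 were above 1 CPM in every group. Dcx was the marker under 0.1 CPM in the transgene cells. Of 8 markers of glia, microglia and fibroblasts, 2 to 3 were above 1 CPM, and the list summed to 3.76 to 11.1 CPM. Mog was under 0.1 CPM in every group. The nuclear RNA Neat1 was depleted from neurites, with a log2 neurite over soma difference of -1.45 in wild-type CAD and -2.93 in wild-type N2A cells. Of 3 nuclear RNAs listed, 1 was called lower in neurites in wild-type CAD and 3 in wild-type N2A. With the wild-type transgene 0 of the 2 tested were called. Neat1 was there at 1.73 to 2.22 CPM in neurites and 1.91 to 2.95 CPM in soma. In the CAD and N2A libraries, 4 short RNAs took 27.3 to 70.9% of the TPM (a level per transcript length, relative to the library total) in neurites and 5.77 to 38.4% in soma. In every wild-type and knockout group of these lines replicate 1 had the largest share. In wild-type cells it had 64.2% against 41.6 and 38.8% in CAD neurites and 38.4% against 15.9 and 10.1% in CAD soma. In wild-type N2A it had 70.9% against 44.1 and 51% in neurites and 21.9% against 11.4 and 5.77% in soma. In knockout cells it had 47% against 37.7 and 46.9% in CAD neurites and 37.5% against 28.5 and 16.2% in CAD soma. In knockout N2A it had 62.3% against 27.3 and 37.5% in neurites and 11.8% against 8.89 and 6.71% in soma. By chi-square per degree of freedom over gene counts, the wild-type N2A neurite replicate 1 differed from the other libraries of its group by 74.59 and 62.89, beside 11.52 between those. The part of the short RNAs in the neurite over soma values was not tested.

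Fxr1 had the highest level of the 10 genes in each of the 12 groups, and the 3 Igf2bp genes had the lowest. Levels were compared between genes by TPM within 1 compartment. In wild-type CAD soma, Fxr1 was at 113 ± 20.3 TPM (SD, n = 3), followed by Stau1 at 58.5 ± 11.1 TPM and Syncrip at 51 ± 10.1 TPM, whose libraries overlapped. Pura, Fmr1, Fxr2 and Stau2 followed at 32.6, 27.3, 27.2 and 26.1 TPM, and the libraries of each overlapped those of the next in this order. The lowest were Igf2bp2 at 0.262 ± 0.0768 TPM, Igf2bp1 at 0.202 ± 0.149 TPM and Igf2bp3 at 0.0257 ± 0.0152 TPM. In wild-type N2A soma, Fxr1 stood at 118 ± 13.1 TPM, Syncrip at 67.3 ± 5.03 TPM, Fxr2 at 40.4 ± 4.28 TPM, Stau1 at 39.7 ± 2.86 TPM, Fmr1 at 32.3 ± 3.44 TPM, Pura at 25.5 ± 5.51 TPM and Stau2 at 17.3 ± 1.64 TPM. Among these, the libraries of Fxr2 and Stau1 overlapped, as did those of Fmr1 and Pura. In soma with the wild-type transgene, Fxr1 was at 195 ± 2.63 TPM, Stau1 at 79.4 ± 6.42 TPM and Syncrip at 68.6 ± 3.95 TPM, and Fmr1, Pura, Fxr2 and Stau2 lay between 32.7 and 46.5 TPM with each overlapping the next.

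**Figure D1:**
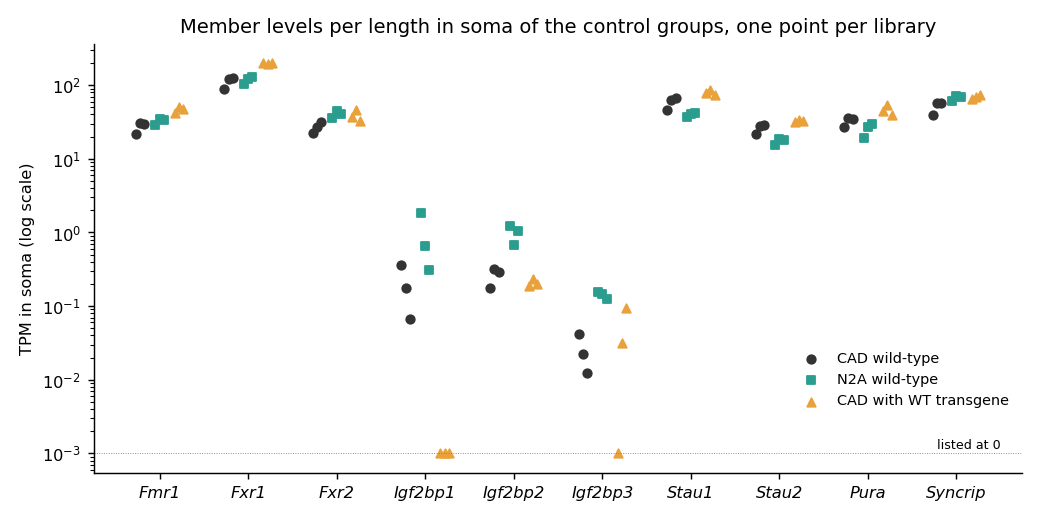
TPM on a log axis in the soma of the control groups (wild-type CAD, wild-type N2A and CAD with the wild-type transgene) for the 10 genes, with 1 point per library and points on the dotted line at 0 TPM. Fxr1 is highest in each group, and the 3 Igf2bp genes have group means under 1 TPM.

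In neurites the order was led by the same gene, with Fxr1 at 49 ± 14.1 TPM in wild-type CAD, 84.7 ± 26 TPM in wild-type N2A and 136 ± 5.24 TPM with the wild-type transgene. Stau1 was next in CAD neurites at 16.2 ± 4.09 TPM, while Syncrip was next in N2A neurites at 32.7 ± 10.4 TPM. The libraries of Stau1 and Syncrip overlapped in the neurites of both lines. TPM values were not compared between compartments, because the 4 short RNAs took a larger share in neurites.

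The Igf2bp genes rested on few reads. Igf2bp1 had 0 to 14 estimated counts per library in CAD, 1 to 37 in N2A and 0 in all 12 libraries of the transgene experiment. If its transcripts were counted there, a count of 0 allows up to 0.157 to 0.277 CPM (3 counts, counting error only). The transgene libraries list 133618 transcripts against 135181 in CAD and N2A, and those not listed were set to 0. Whether transcripts of Igf2bp1 were among them was not tested. Igf2bp2 had 6 to 27 counts in CAD, 24 to 58 in N2A and 3 to 17 in the transgene cells. Igf2bp3 had 0 to 5 counts in CAD, 8 to 25 in N2A and 0 to 4 in the transgene cells, where 8 libraries were at 0. Igf2bp3 overlaps Malsu1 on the opposite strand, which had a mean of 296.1 counts against 5.845 for Igf2bp3. Whether the counting used strand is not given in the sources used here, so values of Igf2bp3 are uncertain. Igf2bp1 and Igf2bp3 did not pass the filter on low counts in CAD and in the transgene cells, which left 8 of the 10 genes tested there and all 10 in N2A.

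TDP-43 binds repeats of GU in RNA, and the perturbation studied here removes it, so the 3′ UTRs of the 10 genes were searched for TGTGT as well as for GTATG and for GTGTG on the transcribed strand, counting overlapping matches. In the longest annotated 3′ UTR of each gene, the matches per kilobase were 2.16 for Fxr1, 2.24 for Igf2bp2, 3.17 for Syncrip, 3.49 for Stau2, 4.25 for Igf2bp3, 4.46 for Stau1, 6.31 for Igf2bp1, 6.56 for Fmr1, 6.69 for Fxr2 and 7.26 for Pura. The median of the 10 was 4.35 per kilobase, beside 4.67 over 14117 genes with a 3′ UTR of at least 100 bases, of which 88.2% held 1 or more matches. Over all annotated 3′ UTR bases of each gene the medians were 4.81 for the 10 and 4.69 for all genes, so that the order of the 2 medians turned. Separately, 80.7% of these genes held TGTGT while 57.7% of them held GTATG and 74.6% of them held GTGTG. The 30-base windows with the most motif bases are shown for the fragile X and Staufen families and for Syncrip, the genes whose levels and isoforms are described next. They come from the 3′ UTRs of Fmr1-206 (chrX:68717817-68717846, plus strand), Fxr1-208 (chr3:34069244-34069273, plus), Fxr2-201 (chr11:69653147-69653176, plus), Stau1-202 (chr2:166947955-166947984, minus), Stau2-213 (chr1:16344791-16344820, minus) and Syncrip-201 (chr9:88452615-88452644, minus) in GRCm38 and are written 5′ to 3′ on the transcribed strand, with the bases of the 3 motifs in capitals.
Fmr1: attacaatattTGTGTGcaaaaTGTGTATG
Fxr1: atgttaaacatactttgacacctacTGTGT
Fxr2: ggttttggaatagaaccagggGTATGTATG
Stau1: agccagtagttcctttgagggaaTGTGTGT
Stau2: gttaattgtgggaagggaagtttaTGTGTG
Syncrip: tttttaTGTGTcattaatataaaTGTGTGT
The window of Fmr1 held 14 motif bases, that of Syncrip 12 and that of Fxr1 5. A match to these letters is not a measured binding site.

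The distribution between compartments was measured as the localization ratio (LR), the log2 of the neurite level over the soma level, so that a positive LR means a higher level in neurites relative to the typical gene. LRs and all other differences were tested with edgeR's quasi-likelihood test over all genes that passed the filter, with Benjamini-Hochberg adjustment, and a gene was called at an adjusted p under 0.01. In wild-type CAD cells 3 of the 8 genes tested were called higher in neurites, where 23.7% of all 17343 genes tested were. In wild-type N2A cells 6 of 10 were called, beside 32.5% of 17912 genes, and with the wild-type transgene 2 of 8 were, beside 14.9% of 13940 genes. None was called lower in neurites in the control cells of any experiment, while scaling by library totals instead gave 0 higher and 6 lower in CAD, 2 higher and 0 lower in N2A and 0 higher and 5 lower with the wild-type transgene. The shares of all genes called under library totals are not given here, so no excess is read from these counts. Library totals moved the median LR of all genes to -0.69 in CAD, -0.37 in N2A and -0.53 in the transgene cells, from -0.02, -0.03 and -0.01 with TMM. The LRs given here are therefore positions relative to the typical gene. Without replicate 1, which had the largest share of short RNAs, all 6 genes were still called in wild-type N2A cells, with LRs from 0.43 for Stau1 to 1.03 for Fxr1, while in wild-type CAD cells Fxr1 was called (0.50) and Stau2 and Pura were not.

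Fxr1 and Stau2 were called higher in neurites in the control cells of all 3 experiments. Fxr1 (ENSMUSG00000027680, chr3:34019943-34070322, plus strand of GRCm38) encodes a translational regulator expressed widely in muscle and brain. It was at 155, 166 and 157 CPM in the 3 soma libraries and at 222, 234 and 232 CPM in the 3 neurite libraries of wild-type CAD cells. All neurite libraries lay above all soma libraries. The LR was 0.53 ± 0.07 (SE; adjusted p = 1e-05 by edgeR's quasi-likelihood test), a 1.44-fold higher level in neurites, and it turned to -0.15 under library totals. In wild-type N2A cells Fxr1 was at 153, 182 and 177 CPM in soma and at 361, 371 and 363 CPM in neurites, an LR of 1.10 ± 0.10 (adjusted p = 9.7e-08) or 2.14-fold, and 0.76 under library totals. The compartments were again apart in every library. With the wild-type transgene the values were 252, 233 and 261 CPM in soma and 344, 367 and 318 CPM in neurites, an LR of 0.46 ± 0.09 (adjusted p = 0.0008) that turned to -0.06 under library totals. The call with the wild-type transgene was lost without replicate 1 (LR 0.47, adjusted p = 0.02) and without replicate 2 (0.37, adjusted p = 0.033). Fxr1 overlaps Dnajc19 on the opposite strand, which had a mean of 329.9 counts against 5828 for Fxr1.

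Stau2 (ENSMUSG00000025920, chr1:16228674-16520112, minus strand) encodes the Staufen protein that is enriched in brain and found in dendritic granules. Its levels in wild-type CAD cells were 39.6, 41.8 and 41 CPM in soma and 53.4, 54.4 and 49.6 CPM in neurites. The neurite libraries were all higher, and the LR was 0.36 ± 0.07 (edgeR's quasi-likelihood test, adjusted p = 0.00041), turning to -0.32 under library totals. Without replicate 1 the LR was 0.30 with an adjusted p of 0.013, and without replicate 2 it was 0.36 with 0.011, so that the call was lost in both cases. In wild-type N2A cells Stau2 was at 27, 28.2 and 26.8 CPM in soma and at 55.7, 55 and 55.1 CPM in neurites, an LR of 1.02 ± 0.08 (adjusted p = 4.4e-08) or 2.02-fold, and 0.68 under library totals. No soma library reached the neurite level. With the wild-type transgene the LR was 0.30 ± 0.08 (adjusted p = 0.006), turning to -0.22 under library totals, and the call was lost when any replicate number was left out, with adjusted p-values of 0.041, 0.047 and 0.035.

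Pura (ENSMUSG00000043991) was called higher in neurites of wild-type CAD cells, where it was at 34, 37.8 and 35 CPM in soma and at 42.8, 47.3 and 39.5 CPM in neurites. The neurite libraries were all higher, with the nearest 2 libraries 37.8 and 39.5 CPM. The LR of 0.28 ± 0.08 (edgeR's quasi-likelihood test, adjusted p = 0.0091) turned to -0.40 under library totals and was not called without replicate 1 (0.22, adjusted p = 0.084), 2 (0.26, 0.068) or 3 (0.34, 0.015). In wild-type N2A cells Pura was at 22.5, 31.6 and 33.6 CPM in soma and at 39.3, 44.9 and 48.5 CPM in neurites, an LR of 0.60 ± 0.13 (adjusted p = 0.00071), and 0.27 under library totals. This call was lost without replicate 2, where the LR was 0.65 with an adjusted p of 0.016. With the wild-type transgene its LR was 0.12 ± 0.10 (adjusted p = 0.35), with an interval of -0.08 to 0.32.

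Stau1, Syncrip and Fxr2 were called higher in neurites in wild-type N2A cells. Stau1 (ENSMUSG00000039536, chr2:166947549-166996299, minus strand), the widely expressed Staufen gene whose protein also acts in mRNA decay, was at 68.1, 74.5 and 73 CPM in N2A soma and at 97.9, 105 and 94.8 CPM in neurites. Its LR was 0.47 ± 0.08 (edgeR's quasi-likelihood test, adjusted p = 7.4e-05), 0.13 under library totals, and was not called without replicate 2 (0.46, adjusted p = 0.02). In wild-type CAD cells the 2 compartments overlapped, with 105, 109 and 110 CPM in soma, 105, 112 and 99.9 CPM in neurites and an interval of the LR from -0.16 to 0.10. Syncrip (ENSMUSG00000032423, chr9:88447009-88482574, minus strand) was at 113, 140 and 135 CPM in N2A soma and at 172, 185 and 195 CPM in neurites, with an LR of 0.51 ± 0.09 (adjusted p = 0.00015) and 0.17 under library totals. Its LR in wild-type CAD cells was -0.03 with an interval of -0.18 to 0.12. Fxr2 (ENSMUSG00000018765, chr11:69632990-69653297, plus strand) was at 53, 56.6 and 51.9 CPM in N2A soma and at 80, 76 and 73.1 CPM in neurites, with an LR of 0.50 ± 0.08 (adjusted p = 3e-05) and 0.17 under library totals. The LR in CAD was -0.07 with an interval of -0.23 to 0.09.

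Fmr1 (ENSMUSG00000000838, chrX:68678541-68717963, plus strand) was the member of the fragile X family with no call in any compartment comparison. In wild-type CAD cells it was at 41.4, 50.3 and 41.8 CPM in soma and at 40.8, 44.5 and 39.5 CPM in neurites. In N2A it was at 40.2, 55 and 49.3 CPM in soma and at 46.2, 54.9 and 63.1 CPM in neurites. The compartments overlapped in both lines, and the LRs were -0.10 (interval -0.29 to 0.09) in CAD and 0.19 (interval -0.07 to 0.45) in N2A. Under library totals the 2 values became -0.78 and -0.14.

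**Figure D2:**
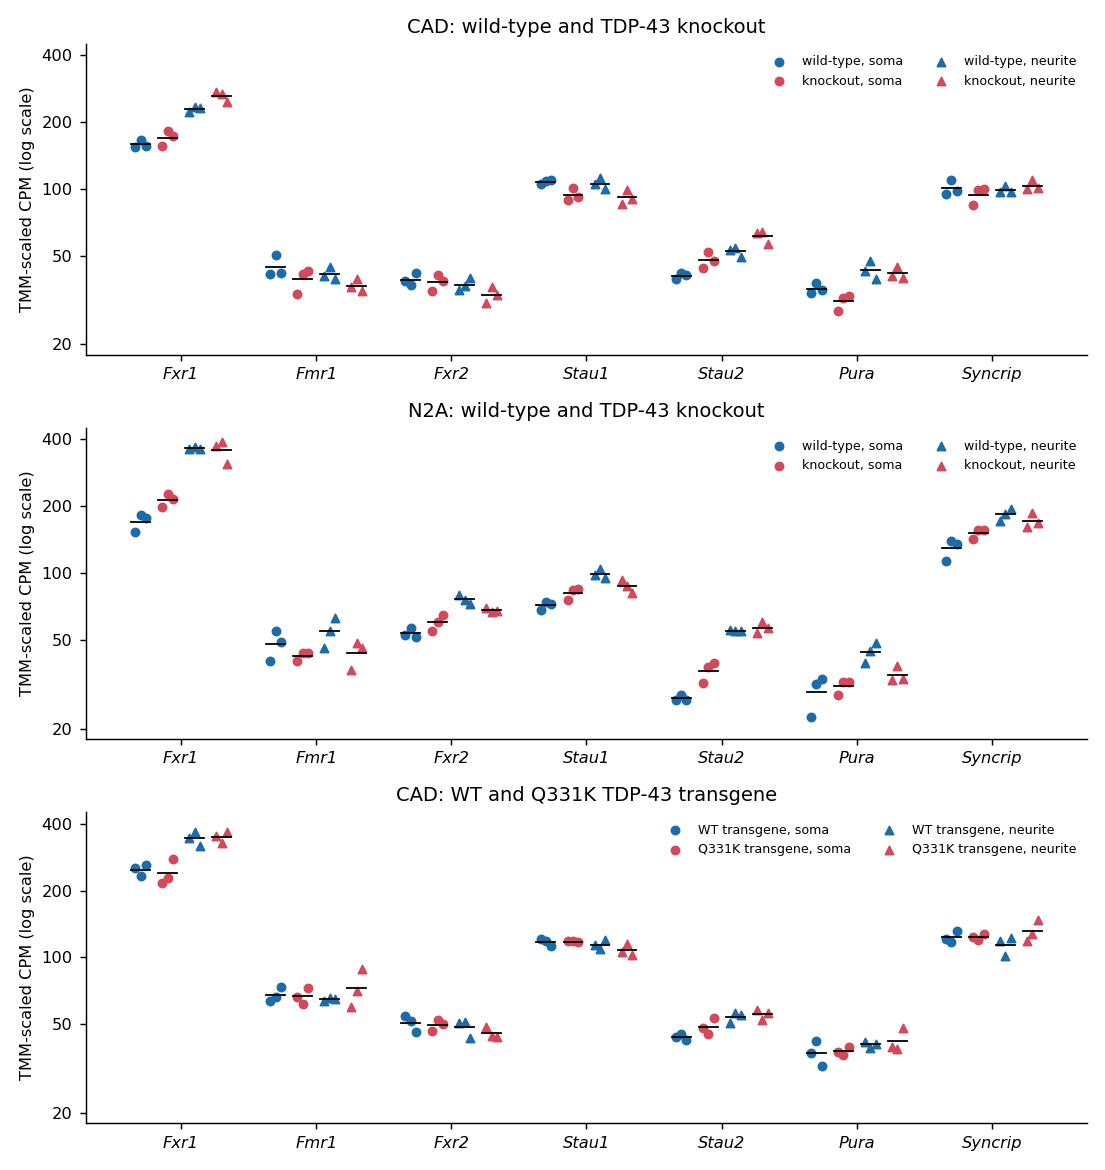
TMM-scaled CPM (log axis) of the 7 expressed genes in every library, with soma as circles, neurites as triangles and group means as lines. In N2A the wild-type neurite libraries of Fxr1 and Stau2 sit above all soma libraries of the line, while the compartments overlap for Fmr1. Neurite levels relative to soma are lower by 0.69 in CAD, 0.37 in N2A and 0.53 in the transgene cells for the median gene under library totals, where the signs of Fxr1, Stau2 and Pura in CAD turn.

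In the cells with altered TDP-43, whose libraries are separate from those above, Fxr1, Stau2 and Pura were again called in CAD knockout cells, where 24.6% of all genes were called higher in neurites. Their LRs were 0.62 ± 0.07, 0.36 ± 0.07 and 0.42 ± 0.08. In N2A knockout cells Fxr1 (0.74 ± 0.10) and Stau2 (0.64 ± 0.08) were called, beside 25.3% of all genes, and in Q331K cells Fxr1 (0.54 ± 0.09) was, beside 16.7%. Without replicate 1, Stau2 (LR 0.25, adjusted p = 0.029) and Pura (0.34, 0.013) in CAD knockout cells and Fxr1 in Q331K cells (0.47, 0.02) lost their calls in edgeR's quasi-likelihood test, and without replicate 2 Stau2 in N2A knockout cells did (0.57, 0.016). Under library totals these LRs became 0.06 for Fxr1, -0.20 for Stau2 and -0.14 for Pura in CAD knockout cells, 0.44 for Fxr1 and 0.35 for Stau2 in N2A knockout cells and -0.02 for Fxr1 in Q331K cells, so that the signs of Stau2 and Pura in CAD and of Fxr1 in Q331K cells turned.

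The wild-type LRs were then compared between the lines in 1 model of the CAD and N2A libraries, where line and series of cultures cannot be told apart. Higher LRs in N2A were called for 5 of the 10 genes, beside 13.6% of the 19700 genes tested. The difference, N2A minus CAD, was 0.57 ± 0.13 for Fxr1, 0.58 ± 0.12 for Fxr2, 0.50 ± 0.11 for Stau1, 0.66 ± 0.12 for Stau2 and 0.54 ± 0.13 for Syncrip, with adjusted p-values of 0.0017, 0.00079, 0.0013, 0.00029 and 0.0034 in edgeR's quasi-likelihood test. Under library totals these 5 differences were 0.91, 0.91, 0.84, 0.99 and 0.88, and the median gene moved from 0.04 to 0.37. Pura (0.33, interval -0.01 to 0.67) and Fmr1 (0.29, interval -0.08 to 0.66) were not called, while library totals called both, Pura at 0.67 (adjusted p = 0.00062) and Fmr1 at 0.63 (0.0048). Without replicate 2 none of the 5 was called, with differences of 0.51 to 0.68 and adjusted p-values of 0.039 to 0.079. Without replicate 1 Stau2 (0.64, adjusted p = 0.0029) and Syncrip (0.48, 0.0074) were called, and without replicate 3 Fxr2 (0.57, 0.0098) was.

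**Figure D3:**
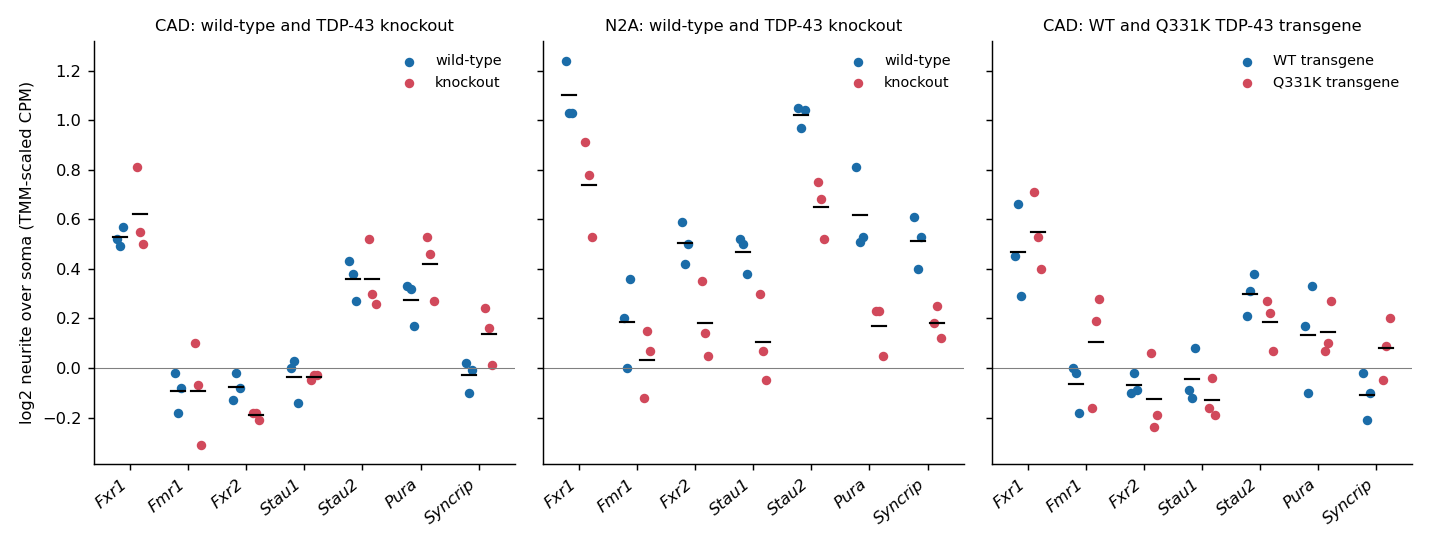
LR (log2 neurite over soma, TMM-scaled CPM) of the 7 expressed genes in control and altered cells, with panels for the 3 experiments and 1 point per replicate number. Soma and neurite libraries are joined by their label number, which was not shown to mark a shared culture. In wild-type N2A cells the points of Fxr1 lie at 1.03 to 1.24 and those of Stau2 at 0.97 to 1.05, and under library totals the LRs of Fxr1, Stau2 and Pura in wild-type CAD fall below 0.

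Soma levels also differed between the lines. On the TMM scale common to both lines, Stau1 was at 109, 117 and 118 CPM in wild-type CAD soma and at 61.7, 67.6 and 67.9 CPM in wild-type N2A soma, and Stau2 was at 41.4, 44.8 and 44.1 CPM against 24.4, 25.6 and 24.9 CPM. No library of the lines overlapped for either gene. Both Staufen genes were thus lower in N2A by the same amount, with a log2 difference of -0.80 ± 0.08 for Stau1 and -0.80 ± 0.09 for Stau2 (edgeR's quasi-likelihood test, adjusted p = 2.4e-09 and 1.4e-08). Pura was lower as well (-0.50 ± 0.12, adjusted p = 0.00098), with 35.5, 40.5 and 37.7 CPM in CAD and 20.4, 28.6 and 31.3 CPM in N2A, and its call was lost without replicate 2 (-0.51, 0.025). Igf2bp2, at 0.55, 0.791 and 0.608 CPM in CAD and 1.49, 1.46 and 1.67 CPM in N2A, was higher in N2A (1.24 ± 0.30, adjusted p = 0.00085), with its call lost without replicate 2 (1.44, 0.014) or 3 (1.14, 0.015). Igf2bp3 was called too (2.09 ± 0.64, adjusted p = 0.0065), at 0.0304 to 0.138 CPM in CAD and 0.283 to 0.389 CPM in N2A, and lost its call without any 1 replicate number (adjusted p = 0.016, 0.077 and 0.039). These 5 calls stand beside 51.2% of all genes called between the lines in either direction. Fxr1, Syncrip and Fmr1 differed by -0.12 (interval -0.30 to 0.06), 0.14 (-0.05 to 0.33) and -0.11 (-0.37 to 0.15). Fxr2 differed by 0.24 ± 0.08 (interval 0.07 to 0.41) and was not called with TMM scaling in edgeR (adjusted p = 0.017), but it was called by DESeq2 (0.31, adjusted p = 0.00024), with upper-quartile scaling (0.44, 2.7e-06) and with library totals (0.35, 0.00027). Upper-quartile scaling also called Syncrip (0.34, 0.00056) and did not call Pura (-0.31, 0.014), and Fmr1 and Fxr1 turned to 0.09 and 0.08 there.

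Loss of TDP-43 was accompanied by a called change in soma level for 1 of the 10 genes in N2A. Stau2 rose from 27, 28.2 and 26.8 CPM in wild-type to 32.2, 37.7 and 39.4 CPM in knockout N2A soma. The groups did not overlap, and the log2 difference was 0.42 ± 0.08 (edgeR's quasi-likelihood test, adjusted p = 0.0017), beside 16.1% of all genes called in N2A soma in either direction. The call was lost without replicate 2 (0.51, adjusted p = 0.076) and without replicate 3 (0.41, 0.031), and it was kept under library totals (0.33, 0.0042). In CAD soma, where 22.8% of all genes were called, none of the 8 genes was. Stau2 was there at 39.6 to 41.8 CPM in wild-type and 44.3 to 52 CPM in knockout libraries, a difference of 0.23 ± 0.07 (adjusted p = 0.018), and Stau1 at 105 to 110 CPM and 89 to 101 CPM, a difference of -0.20 ± 0.07 (adjusted p = 0.033). Neither gene's groups overlapped, and both differences missed the threshold. At an unadjusted p under 0.05 the counts were 3 of 8 in CAD soma and 4 of 10 in N2A soma, and DESeq2 called 1 in CAD soma and 2 in N2A soma. The shares of all genes at that p, by DESeq2 or without overlap of the groups are not given here, so no excess is read from these counts.

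Among the other genes in N2A soma, Fxr1 was at 153, 182 and 177 CPM in wild-type and 199, 228 and 215 CPM in knockout libraries, a difference of 0.33 ± 0.10 (edgeR's quasi-likelihood test, adjusted p = 0.019) that DESeq2 called (0.36, adjusted p = 0.00097). Syncrip differed by 0.23 ± 0.09 (adjusted p = 0.068), Stau1 by 0.18 ± 0.08 (0.093), Fxr2 by 0.16 ± 0.08 (0.12), Pura by 0.09 ± 0.13 (0.62) and Fmr1 by -0.18 ± 0.13 (0.32). In CAD soma the remaining differences were 0.10 for Fxr1, -0.04 for Fxr2, -0.10 for Syncrip, -0.19 for Pura, -0.18 for Fmr1 and -0.83 ± 0.41 for Igf2bp2. The median over the genes tested was -0.14 in CAD and 0.17 in N2A, beside 0.00 and -0.02 over all genes.

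A difference between the lines in the effect of knockout on soma level was called for Stau1. On the common scale its mean was 115 CPM in wild-type and 98.7 CPM in knockout CAD soma, and 65.7 CPM in wild-type and 77.3 CPM in knockout N2A soma. The effect in N2A minus that in CAD was 0.45 ± 0.11 (edgeR's quasi-likelihood test, adjusted p = 0.0048), the 1 call among 10 genes where 10.5% of all genes were called. A single call among 10 is near that share. It was not called without replicate 2 (0.51, adjusted p = 0.092) or 3 (0.41, 0.082), and under library totals, which moved the median gene from 0.02 to -0.13, it was 0.30 (0.0096). Neither line's own change of Stau1 passed the threshold.

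In neurites, no gene of the 10 was called after loss of TDP-43, against 25.3% of all genes called in CAD and 11.6% in N2A. In CAD neurites Stau2 was at 53.4, 54.4 and 49.6 CPM in wild-type and 63.4, 64.1 and 56.8 CPM in knockout libraries (0.23 ± 0.07, edgeR's quasi-likelihood test, adjusted p = 0.018), and Fxr1 at 222, 234 and 232 CPM and 274, 268 and 246 CPM (0.19 ± 0.07, adjusted p = 0.038). Stau1 was at 105, 112 and 99.9 CPM against 86.1, 98.7 and 90.4 CPM (-0.20 ± 0.07, adjusted p = 0.03). The 2 groups did not overlap for any of these genes, a description given without the share of all genes whose groups did not overlap. DESeq2 called 1 of the 8, Stau1 (-0.21, adjusted p = 0.0075), and library totals, which moved the median gene to 0.11, called Stau2 (0.34, 0.0011) and Fxr1 (0.30, 0.0059). In N2A neurites Pura was at 39.3, 44.9 and 48.5 CPM in wild-type and 33.1, 38.1 and 33.4 CPM in knockout libraries (-0.34 ± 0.13, adjusted p = 0.069). Fmr1 (-0.32 ± 0.13, 0.1), Stau1 (-0.18 ± 0.08, 0.12) and Fxr2 (-0.17 ± 0.08, 0.14) lay below 0 too, while Fxr1 (-0.03), Stau2 (0.04) and Syncrip (-0.09) lay nearest to 0, with Stau2 at 0.00 under library totals. At an unadjusted p under 0.05 there were 4 genes in each line's neurites, and DESeq2 called 0 in N2A. No share of all genes is given here for that p, for DESeq2 or for library totals.

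The change in LR after knockout answers whether the distribution between compartments moved, and it was called for none of the 10 genes in either line. Over all genes, 0.432% were called in CAD and 0.1% in N2A. In CAD the changes ran from -0.16 to 0.16, with intervals of -0.11 to 0.29 for Fxr1, -0.20 to 0.20 for Stau2, -0.19 to 0.19 for Stau1, -0.27 to 0.27 for Fmr1 and -0.05 to 0.37 for Syncrip, and none had an unadjusted p under 0.05. In N2A the change was -0.36 ± 0.11 for Stau1, -0.37 ± 0.11 for Stau2, -0.33 ± 0.11 for Fxr2, -0.35 ± 0.13 for Fxr1, -0.32 ± 0.13 for Syncrip and -0.43 ± 0.18 for Pura. Their adjusted p-values were 0.052, 0.054, 0.063, 0.095, 0.1 and 0.12 in edgeR's quasi-likelihood test, and each of the 6 had an unadjusted p under 0.05. Fmr1 was at -0.14 ± 0.19. In all, 9 of the 10 values in N2A were below 0 with a median of -0.36, beside -0.01 over all genes, and the 10 values share the same libraries. DESeq2 called 3 of them, Stau1 (-0.40, adjusted p = 0.0036), Stau2 (-0.42, 0.0065) and Fxr2 (-0.37, 0.0072), and with library totals the values of the 7 expressed genes ran from -0.11 to -0.40. With DESeq2 the median over all genes was -0.06. The shares of all genes called by DESeq2 or with an unadjusted p under 0.05 are not given here, so no excess is read from these counts. For Stau2 the wild-type and knockout N2A neurite libraries overlapped and the soma libraries did not. For Pura the soma libraries overlapped and the neurite libraries did not. The difference in LR change between N2A and CAD was not called for any of the 10, where 0.203% of all genes were, with values from -0.17 to -1.39 and an unadjusted p under 0.05 for 5 genes.

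Expression of Q331K in place of the wild-type transgene gave no call for the 8 genes tested in soma, in neurites or in the change of LR, and 0% of all 13940 genes were called in each of these comparisons by edgeR's quasi-likelihood test. DESeq2 called 0 of the 8 in each as well. In soma Fxr1 was at 252, 233 and 261 CPM with the wild-type transgene and 217, 227 and 277 CPM with Q331K, and the groups overlapped. In neurites Syncrip was at 119, 102 and 122 CPM and 119, 128 and 147 CPM, a difference of 0.20 ± 0.09 and the 1 unadjusted p under 0.05 in neurites (0.036, adjusted p = 0.48), with none in soma or in the LR change. The changes in LR of the 7 expressed genes ran from -0.11 for Stau2 (interval -0.33 to 0.11) to 0.19 for Fmr1 (-0.12 to 0.50) and for Syncrip (-0.06 to 0.44).

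**Figure D4:**
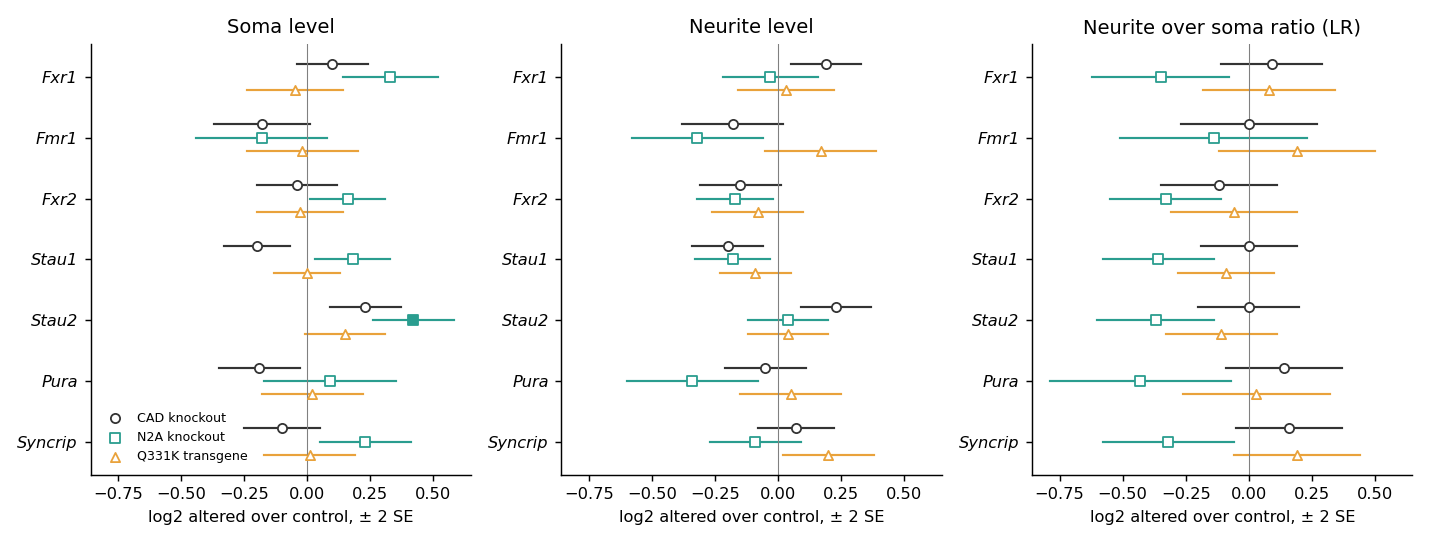
Log2 difference of altered over control cells with 2 standard errors for soma level, neurite level and LR, by experiment, with filled points for genes called at an adjusted p under 0.01. The soma level of Stau2 in N2A, at 0.42, is the filled point, and the changes in LR in N2A lie below 0 for the expressed genes with TMM scaling and with library totals.

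The genes of this group encode several transcripts each, apart from Pura with 1 annotated transcript, and the share of each transcript in its gene's TPM was followed. Salmon divides reads among transcripts that share sequence, and the uncertainty of that division was not modelled. Relative use of transcripts in soma was tested with edgeR's diffSpliceDGE, in which 0.569% of all transcripts tested were called in CAD, 0.36% in N2A and 0.0616% with Q331K. The transcripts tested came from 6 of the 10 genes in CAD, 7 in N2A and 5 with Q331K. Of these transcripts, 0 of 47 were called in CAD, 1 of 47 in N2A and 0 of 31 with Q331K, and 2, 6 and 1 had an unadjusted p under 0.05. The share of all transcripts at that p is not given here. The call was Stau2-206, a protein-coding transcript with 0 estimated counts in all 3 wild-type N2A soma libraries, which allows up to 3 counts each, and with 80, 184 and 165 counts in knockout N2A soma (diffSpliceDGE, adjusted p = 0.0026). These counts were 6.75, 12.8 and 9.1% of the Stau2 TPM. The same transcript was not at 0 elsewhere in N2A: its share was 3.23, 4.86 and 4.13% in wild-type and 7.02, 8.85 and 7.8% in knockout neurites. The call was lost without replicate 1, 2 or 3, with adjusted p-values of 0.064, 0.062 and 0.075.

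Fxr1-207, annotated as a target of nonsense-mediated decay, was lower in relative use in knockout N2A soma without passing the threshold (log2 relative change -2.98, diffSpliceDGE adjusted p = 0.014). Its share was 5.73, 2.58 and 8.04% in wild-type and 0, 1.44 and 0.516% in knockout N2A soma, and 5.88, 1.86 and 5.16% against 1.44, 0.0959 and 0.281% in neurites. The 2 genotypes did not overlap in either compartment. In diffSpliceDGE its adjusted p was 0.14, 0.01 and 0.73 without replicate 1, 2 and 3, and 0.17 with the replicate number as a block. Stau1-203, a protein-coding transcript, was higher in relative use in knockout soma of both lines without passing the threshold. Its log2 relative change was 7.90 in CAD (diffSpliceDGE adjusted p = 0.047) and 7.85 in N2A (0.027), and it was -0.51 with Q331K. In soma of both knockout lines its shares overlapped those of wild-type.

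Shares that did not overlap between control and altered libraries were counted as a description. They were 11 of the 47 tested transcripts in CAD soma, where 18.8% of all transcripts did not overlap, and 10 of 47 in CAD neurites beside 18.7%. In N2A they were 15 of 47 in soma beside 22.7% and 7 of 47 in neurites beside 16.9%. With Q331K they were 2 of 31 in soma beside 10.5% and 6 of 31 in neurites beside 9.46%. Of 41 transcripts with values in both lines, 1 differed without overlap in the same direction in soma and neurites of both lines, beside 1.47% of all such transcripts. This was Syncrip-205, a protein-coding transcript. Its share was 24.6, 24.9 and 23% in wild-type and 20.5, 16.3 and 13.9% in knockout CAD soma, and 26.8, 25.8 and 30.2% against 16.9, 13.8 and 14.8% in CAD neurites. In N2A it was 18.5, 19 and 18.1% against 10.5, 9.42 and 9.48% in soma, and 23.4, 21.3 and 22.4% against 15.2, 11.4 and 13.5% in neurites. The share was thus lower in every knockout library than in every wild-type library of the same compartment and line, although the soma tests did not call it (diffSpliceDGE, adjusted p = 1 in CAD and 0.77 in N2A). With the wild-type transgene and with Q331K, Syncrip-205 was at 9.91 ± 5.16% and 9.83 ± 2.29% (SD, n = 3) in soma. The transgene libraries were quantified on fewer transcripts, so these shares were not compared with those of CAD and N2A.

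Other transcripts without overlap were seen in part of the comparisons. Syncrip-210, with overlapping shares in N2A soma, was at 33.1, 35.5 and 30.8% in wild-type and 20.2, 18.2 and 20.6% in knockout CAD soma, and its mean share was 34.8% against 24.3% in CAD neurites and 21.8% against 16% in N2A neurites (wild-type against knockout). Stau2-214, the main Stau2 transcript, was at 77.5, 83.4 and 77.7% in wild-type and 60.2, 57.5 and 60.6% in knockout CAD soma, with means of 84.1% and 60.5% in CAD neurites. In N2A the Stau2-214 shares of the 2 genotypes overlapped in both compartments. Fxr1-206 was at 25.1 ± 0.951% in wild-type and 30.8 ± 1.84% in knockout CAD soma, and at 20.2 ± 1.59% and 27.5 ± 1.06% in N2A soma. Neither Syncrip-210, Stau2-214 nor Fxr1-206 was called in soma (diffSpliceDGE, adjusted p = 1 in both lines).

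**Figure D5:**
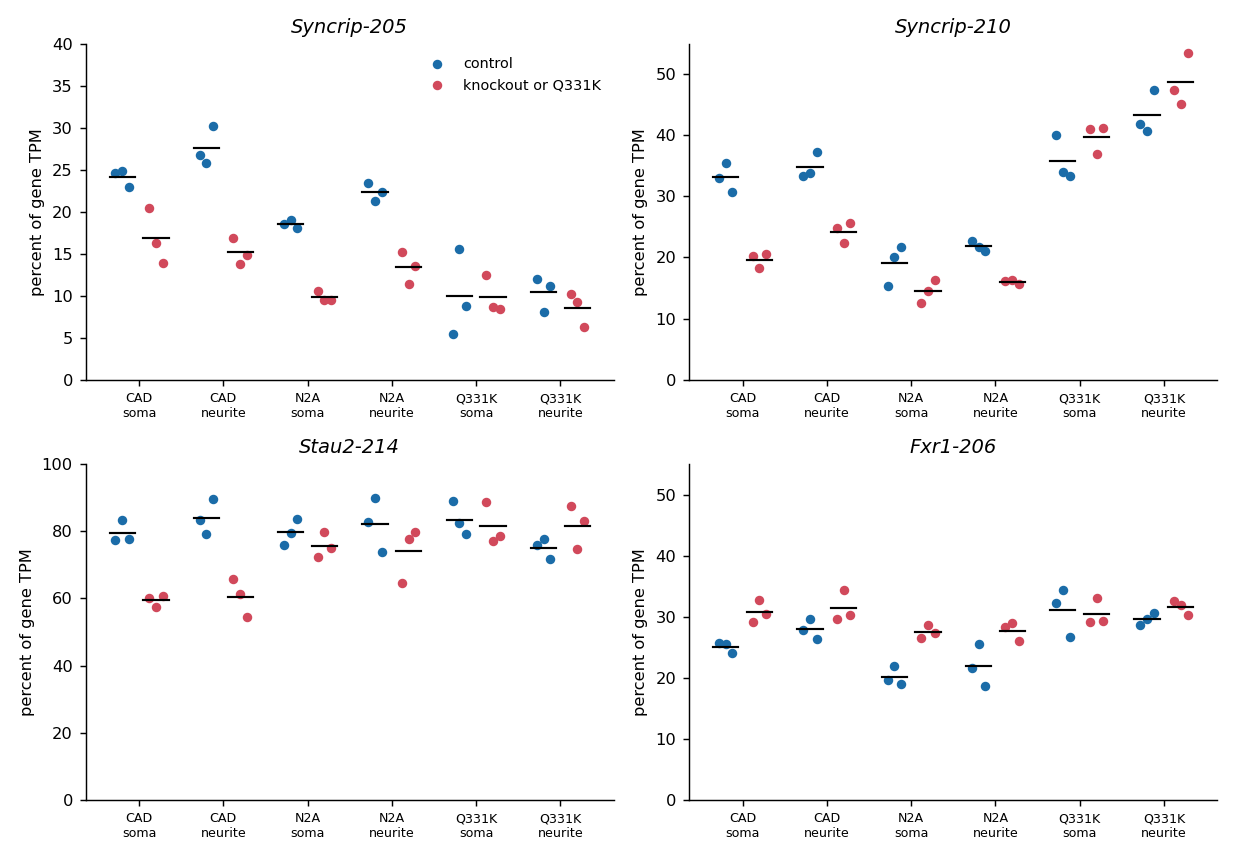
Share of the gene's TPM, in percent, held by Syncrip-205, Syncrip-210, Stau2-214 and Fxr1-206 in every library, by group. For Syncrip-205 the knockout libraries lie below the wild-type libraries in soma and neurites of CAD and N2A, with means of 24.2 and 16.9% in CAD soma.

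The genes around the 10 were taken from 6 lists of partners and cargo with 64 genes, all of which were tested in every experiment. In wild-type CAD cells 24 were called higher and 17 lower in neurites, in wild-type N2A cells 35 and 9, and with the wild-type transgene 16 and 9, all relative to the typical gene. Over all genes tested, 4103 were called higher and 3064 lower of 17343 in CAD, 5825 and 4773 of 17912 in N2A, and 2084 and 1753 of 13940 with the wild-type transgene. Under library totals the counts were 5 higher and 48 lower, 26 and 18, and 6 and 44, and shares of all genes under that scaling are not given here. Between the lines, the wild-type LR of 28 of the 64 was called higher in N2A and that of 7 lower. All genes gave 2673 and 950 of 19700, and library totals gave 52 and 6 of the 64. The median difference, N2A minus CAD, was 0.45 for the 64 and 0.52 for the 10 granule protein genes. Among 9 partners of the fragile X proteins and stress granule genes, 1 was called higher and 2 lower in CAD neurites and 5 higher and 1 lower in N2A neurites, the higher ones including Nufip1 (LR 1.09 ± 0.08, and 0.75 under library totals), which encodes a nuclear FMRP-interacting protein, and Caprin1 (0.74 ± 0.10). Of 9 IGF2BP and HuR-type co-factors, 3 were higher and 1 lower in CAD neurites and 7 higher and 0 lower in N2A neurites, with Hnrnpab (1.39 ± 0.10) and Ybx1 (1.36 ± 0.09) in N2A and Khsrp (-0.57 ± 0.06) in CAD. Of 10 Staufen and exon junction partners, 4 were higher and 4 lower in CAD neurites and 6 and 2 in N2A neurites, with Magoh and Rbm8a, which form the core of the exon junction complex, at 1.86 ± 0.15 and 1.56 ± 0.10 in N2A. Of 12 Pur and kinesin granule genes, 8 were higher and 2 lower in CAD neurites and 7 and 0 in N2A neurites, and the kinesin heavy chains Kif5c and Kif5b reached LRs of 4.72 ± 0.15 and 4.41 ± 0.16 in CAD. Of 10 CPEB and other dendritic RNA-binding genes, 3 were higher and 5 lower in CAD neurites and 3 and 2 in N2A neurites, with Samd4 at 1.71 ± 0.09 in CAD. Of 14 RNAs known as cargo, 5 were higher and 3 lower in CAD neurites and 7 and 4 in N2A neurites, with Cfl1 at 1.58 ± 0.11 in N2A.

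After loss of TDP-43, 15 of the 64 genes rose and 0 fell in N2A soma, and 8 rose and 7 fell in CAD soma. Over all genes, 1955 rose and 922 fell of 17912 in N2A soma and 1943 rose and 2007 fell of 17343 in CAD soma, in all 16.1 and 22.8%. G3bp1, the core gene of stress granules, rose in both lines, by 0.48 ± 0.06 in CAD (edgeR's quasi-likelihood test, adjusted p = 7.3e-06) and by 0.47 ± 0.07 in N2A (0.00024). Cyfip2, which encodes a partner of FMRP that is also a subunit of the WAVE complex, rose by 0.58 ± 0.06 in CAD soma. In neurites 8 rose and 14 fell in CAD and 5 rose and 2 fell in N2A, beside 2038 and 2342 of all genes in CAD and 1161 and 913 in N2A, in all 25.3 and 11.6%. In neurites library totals gave 13 and 7 of the 64 in CAD and 3 and 9 in N2A, again without a share of all genes beside them. The kinesin gene Kif5a rose in the neurites of both lines, by 1.04 ± 0.14 in CAD and 1.41 ± 0.18 in N2A, and Mapt, the cargo RNA that encodes tau, fell by 1.04 in CAD neurites. Both also changed in CAD soma, where Kif5a rose by 0.57 ± 0.14 and Mapt fell by 0.82 ± 0.07. The change in LR was called for 0 of the 64 genes in all 3 experiments with edgeR, and their median change was -0.30 in N2A, -0.03 in CAD and 0.04 with Q331K.

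The genes whose levels were most like each member over the 36 libraries were found by Pearson's r of log2 CPM after centring each experiment, over 13231 genes, as a description of libraries that share compartment and depth. Metap2 (r = 0.991), Eif2a (0.987) and Cetn3 (0.986) were closest to Fxr1, and Rab7 (0.971), Rsl1d1 (0.962) and Calm2 (0.958) to Stau2. For Syncrip they were Cul3 (0.93), Prkaa1 (0.905) and Stag2 (0.893), for Stau1 Gatad2a (0.897), Zbtb2 (0.875) and Tnip1 (0.865), and for Fmr1 Arhgap5 (0.893), Mbnl1 (0.878) and Naa15 (0.855). Those of Pura were Cfap97 (0.878), Rap2c (0.877) and 3830403N18Rik (0.876), and those of Fxr2 were Zfp385a (0.819), Npr1 (0.817) and Fyn (0.813). Among the members, Fxr1 and Stau2 were most alike (0.93), followed by Fxr2 and Stau1 (0.783), while Fmr1 had values of 0.0997 with Fxr1 and 0.0458 with Stau2.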

How the data were processed

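Per the labels and the study's methods, the authors removed adapter sequence with cutadapt and estimated transcript abundance with Salmon on mm10 (versions and strand setting not given in the sources used here; the methods name Gencode 17). Each deposited file lists an estimated count and a TPM for every transcript. Both were summed to genes with GENCODE vM21 (GRCm38), counts were rounded, and at most 0.129% of a library's counts had no gene. Tests used edgeR 4.0.16 in R 4.3.3 (TMM, filterByExpr, glmQLFit, glmQLFTest, Benjamini-Hochberg adjustment, threshold 0.01) on the 4 groups of an experiment, or on CAD and N2A together, and diffSpliceDGE for transcripts. Intervals span 2 standard errors. Scripts were tested on simulated data. Alternatives were DESeq2 1.42.0, other scalings, filters and thresholds, length-scaled counts, replicate blocks and leaving out replicates. Scaling by library totals was added after seeing the data. The members, lists and named-gene rule (every member, at most 2 genes per list and comparison, the 3 most alike genes) were chosen with earlier results of these data known. No set of same-numbered libraries had every correlation of deviations over 0.1, so numbers were not treated as pairs. Wild-type and knockout soma libraries of number 1 did correlate, at 0.415 in CAD and 0.491 in N2A. Reporter, binding, decay and human motor neuron files were not used here.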

Additional observations from a re-analysis of the deposited data

Results flagged for a closer look

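The wild-type localization ratio differed between N2A and CAD cells by a test of the difference for 5 genes, with N2A minus CAD values (log2) of 0.57 for Fxr1, 0.58 for Fxr2, 0.50 for Stau1, 0.66 for Stau2 and 0.54 for Syncrip. For Stau1 a difference in the effect of knockout on soma level was also called, at 0.45 (N2A minus CAD, log2). Over all genes, 13.6% were called higher in N2A for the LR and 10.5% in either direction for the soma effect. The 1 call among 10 genes for the soma effect is near the share of all genes. Leaving out 1 replicate number gave 0 to 2 calls for the LR and 0 to 1 for the soma effect. Of the 64 partner and cargo genes, 28 were called higher and 7 lower in N2A for the LR. The named differences were picked out because the effects of 1 contrast differed between 2 cell lines.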

How the results depend on the processing

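With an FDR of 0.05, the called members were 2 in CAD soma, 3 in CAD neurites, 2 in N2A soma and 2 for the line difference in soma effect, and the called transcripts 1 in CAD and 3 in N2A. DESeq2 gave 1, 1 and 2 for CAD soma, CAD neurites and N2A soma, and 3 for the N2A change in LR. Upper-quartile scaling gave 1 and 1 in CAD soma and neurites, 3 for the N2A LR, 2 for the line difference in LR and 0 for that in soma effect. Length-scaled counts gave 1, 1 and 3 in CAD soma, CAD neurites and N2A soma and 0 for the line difference in soma effect. At least 10 counts in every library gave 1 in CAD soma, 2 in CAD neurites, 1 transcript in CAD and 0 in N2A, and no filter gave 2 in N2A soma and 1 for the LR with the wild-type transgene. Library totals gave 6, 2 and 5 for the LR in CAD, N2A and the transgene cells and 2 in CAD neurites, and reversed the LR of Fxr1 (-0.15), Stau2 (-0.32) and Pura (-0.40) in CAD and of Fxr1 (-0.06) and Stau2 (-0.22) in the transgene cells; they leave out the step that centres the typical gene. Other causes were not tested, and the shares of all genes called under these alternatives are not given here.

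Leaving out 1 replicate number gave 1 to 2 calls for the LR in CAD, 4 to 6 in N2A and 0 to 1 with the wild-type transgene, 0 to 1 in N2A soma, 2 to 4 for soma level between the lines, 0 to 2 and 0 to 1 for the line differences in LR and soma effect, 0 for N2A transcripts and 0 to 0 elsewhere. The fit with the replicate number as a replicate block gave 2 calls for the line difference in soma effect and 0 N2A transcripts (Stau2-206, adjusted p = 0.017), moved no other count by over 1.5 times, and in 3 of 12 pairs of groups every library correlated best with the one of its own number. Of the alternatives, 155 counts stayed within 1.5 times and 48 did not.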

Other observations

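Between the lines, 37 of the 64 partner and cargo genes were called lower and 6 higher in wild-type N2A soma than in CAD soma (edgeR's quasi-likelihood test), beside 5913 lower and 4176 higher of all 19700 genes. Library totals gave 30 lower and 8 higher of the 64, without a share of all genes beside them. The cargo RNAs Cd44, which encodes a hyaluronan receptor, and Camk2a, which encodes a kinase of dendrites and synapses, differed by -3.66 ± 0.25 and 2.69 ± 0.09 on the log2 scale (N2A minus CAD).

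The Igf2bp genes had at most 58 estimated counts in a library, and their intervals were wide (Igf2bp1 LR in wild-type N2A cells -1.37, interval -2.66 to -0.08). RNA levels were measured, and the proteins were not analysed here.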
